A study of Mus musculus with 22 samples.

Results

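The genes described here are 50 genes of ribosome biogenesis and RNA polymerase I, chosen by their symbols from a fixed list, and all 50 were present among the 11208 genes of the study's table of normalized counts. RNA was measured in NIH/3T3 cells, an established line of mouse embryonic fibroblasts, into which a construct for doxycycline-inducible E2F1 or an empty vector (EV) had been stably integrated. E2F1 is a transcription factor of the cell cycle that drives genes needed for DNA replication. All cells of both lines were held for 48 h in 0.25% serum, a starvation that brings fibroblasts into a resting state, so every group, the controls included, shares that treatment. Cells of the E2F1 line were then given 500 ng/ml doxycycline for 0, 2, 6 or 12 h, cells of the EV line were given doxycycline for the same times, and other cells of the EV line were given 10% serum for 2, 6 or 12 h. Each of these 11 groups held 2 libraries of polyadenylated RNA, 22 in all, and the serum libraries were set against the EV libraries at 0 h. No group without doxycycline or serum was measured at 2, 6 or 12 h. A change with either treatment against 0 h therefore cannot be told apart from one with the added time. The labels do not say whether a line was 1 clone or whether the 2 libraries of a group came from separate cultures, so p-values measure only the spread between these libraries, which may be technical.

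Ribosome biogenesis begins in the nucleolus, where RNA polymerase I copies the ribosomal DNA into a long precursor. Small nucleolar RNPs modify that precursor, the small subunit processome and its partners fold and cut the part that becomes the 40S subunit, and another set of factors builds the 60S subunit around the rest. The genes for these factors are known to be held low in resting fibroblasts and raised when growth factors return, and MYC, which binds the E-box letters CACGTG, is a known activator of many of them. E2F proteins are known to bind short GC-rich sites that follow a run of T in the promoters of replication genes.

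Promoter sequences, taken from RefSeq on build GRCm38.p6, were at hand for 45 of the 50 genes in 54 windows that run from 250 bases before to 50 bases after a start site. The letters CACGTG, which read the same on both strands, stood in 11 of the 54 windows (20.4%), against 10.2% of the windows of all genes in the table and 7.15% of all 32851 windows. Any of the octamers TTTGGCGC, TTTCGCGC, TTTCCCGC and TTTGCCGC, searched on both strands, stood in 4 of the 54 windows (7.41%), against 4.21% for genes in the table. The Tsr1 window held both kinds of motif. A match is a description of the letters and not a binding site. The 250 bases before the start are shown for 4 genes picked as examples of the motifs. Rrn3 (chr16:13780449-13780698, plus strand) and Nop2 (chr6:125131633-125131882, plus strand) hold the E-box. Ncl (chr1:86359456-86359705, minus strand) and Nolc1 (chr19:46075597-46075846, plus strand) hold an E2F-type octamer. The 4 do not stand for a pairing of motif and response, which was not tested. At 12 h of serum 48 of the 50 members were higher, with or without a motif. At 12 h of E2F1, Ncl, Nolc1 and Utp18, which holds the E-box, were higher, Nop2 and Tsr1 were lower, and Rrn3 was not called. Capitals mark the motif, which in Ncl is the reverse complement of TTTGGCGC.
Rrn3: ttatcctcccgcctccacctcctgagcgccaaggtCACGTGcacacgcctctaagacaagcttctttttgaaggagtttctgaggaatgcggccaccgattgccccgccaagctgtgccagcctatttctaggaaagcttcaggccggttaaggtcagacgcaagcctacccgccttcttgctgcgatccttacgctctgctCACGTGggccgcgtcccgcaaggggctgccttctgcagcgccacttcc
Nop2: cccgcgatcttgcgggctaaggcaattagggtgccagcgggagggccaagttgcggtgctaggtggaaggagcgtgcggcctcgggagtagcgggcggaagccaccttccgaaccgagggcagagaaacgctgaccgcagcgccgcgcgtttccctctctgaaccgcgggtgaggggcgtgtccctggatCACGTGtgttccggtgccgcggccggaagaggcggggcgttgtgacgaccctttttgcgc
Ncl: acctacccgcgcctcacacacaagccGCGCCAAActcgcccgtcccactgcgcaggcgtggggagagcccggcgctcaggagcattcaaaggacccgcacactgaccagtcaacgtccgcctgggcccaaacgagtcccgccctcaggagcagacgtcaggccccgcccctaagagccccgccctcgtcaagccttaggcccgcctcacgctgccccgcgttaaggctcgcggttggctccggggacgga
Nolc1: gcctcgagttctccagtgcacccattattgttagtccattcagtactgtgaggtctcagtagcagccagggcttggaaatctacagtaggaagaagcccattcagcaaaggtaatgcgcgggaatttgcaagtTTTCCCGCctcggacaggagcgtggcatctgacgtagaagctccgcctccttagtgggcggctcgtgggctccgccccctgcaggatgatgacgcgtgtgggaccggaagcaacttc

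The values are the authors' normalized counts per gene, rounded to whole numbers, and library totals on that scale ran from 34014608 to 46057140, with the serum libraries at 2 h the highest. All 8 fibroblast markers looked up were in the table (Col1a1, for example, was at 91191 or more in every library), and none of the 2 markers each of epithelial, leukocyte, endothelial or muscle cells was. E2f1 itself, counted at 1703 and 1637 in the E2F1 line at 0 h, stood at 1535 and 1755 at 2 h, 3806 and 3602 at 6 h, and 2683 and 2845 at 12 h, while the EV line given doxycycline stayed between 1307 and 1655. With serum, E2f1 was at 802 and 740 at 2 h, 1186 and 956 at 6 h, and 4615 and 4247 at 12 h. Those 12 h serum libraries lay above every library of the E2F1 line. In the E2F1 line the rise of E2f1 was seen at 6 and 12 h (log2 differences 1.15 and 0.73, limma adjusted p = 9.61e-08 and 1.65e-05) and not at 2 h. Whether transcripts of the construct are counted under this gene is not given in the sources used here.
The 2 h libraries stood apart from their lines. On 12 genes at least 4-fold higher in every E2F1 library than in every EV doxycycline library at 0, 6 and 12 h, the E2F1 libraries at 2 h lay only 63.0 and 55.6% of the way from the EV to the E2F1 level, the EV doxycycline libraries at 2 h lay at 18.8 and 14.0%, and the serum libraries at 2 h lay at 18.0 and 23.6%. The other EV libraries lay between -1.9 and 1.7% and the other E2F1 libraries between 89.4 and 108.1%, which the choice of genes fixes for the doxycycline libraries. The part that this plays in the 2 h results was not tested, and the 6 and 12 h results lead the account of doxycycline. In bulk RNA, fewer cells of a kind and less RNA per cell cannot be told apart.

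Changes are given as differences of log2(normalized count + 1) between group means with their standard error (SE), a scale on which 1 is a 2-fold change and which understates changes of low genes. They were tested with limma over all 11208 genes at a Benjamini-Hochberg adjusted p under 0.05. In each comparison the share of all genes that passed is given beside the members' count.

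Serum raised nearly the whole set, quickly and for the full 12 h. At 2 h, 47 of 50 members were higher and 1 was lower, with a median log2 difference of 1.55 (all genes 0.03, of which 37.5% were higher and 33.5% lower), and 44 members rose at least 2-fold against 13.8% of all genes. At 6 h, 48 members were higher and 2 lower (median 1.52, with 36.5 and 31% of all genes), and 41 rose at least 2-fold against 10.7%. At 12 h, 48 were higher and 2 lower (median 1.38, with 36 and 29.7% of all genes), and 37 rose at least 2-fold against 10.3%. The 47 members higher at 2 h were higher at all 3 times, which share the 0 h libraries. The share of each library's total counts that fell on the 50 genes was 0.42 and 0.45% in the EV line at 0 h and between 0.83 and 0.93% in the 6 serum libraries. Scaling each library to the same total, which moved the median of all genes by -0.37 at 2 h and -0.21 at 6 h, left 46 members higher at each of these times. The 2 lower members at 6 and 12 h were Ddx10 and Polr1c, and without EV 0 h replicate 1 or serum 12 h replicate 2 the count at 12 h was 1.

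**Figure D1:**
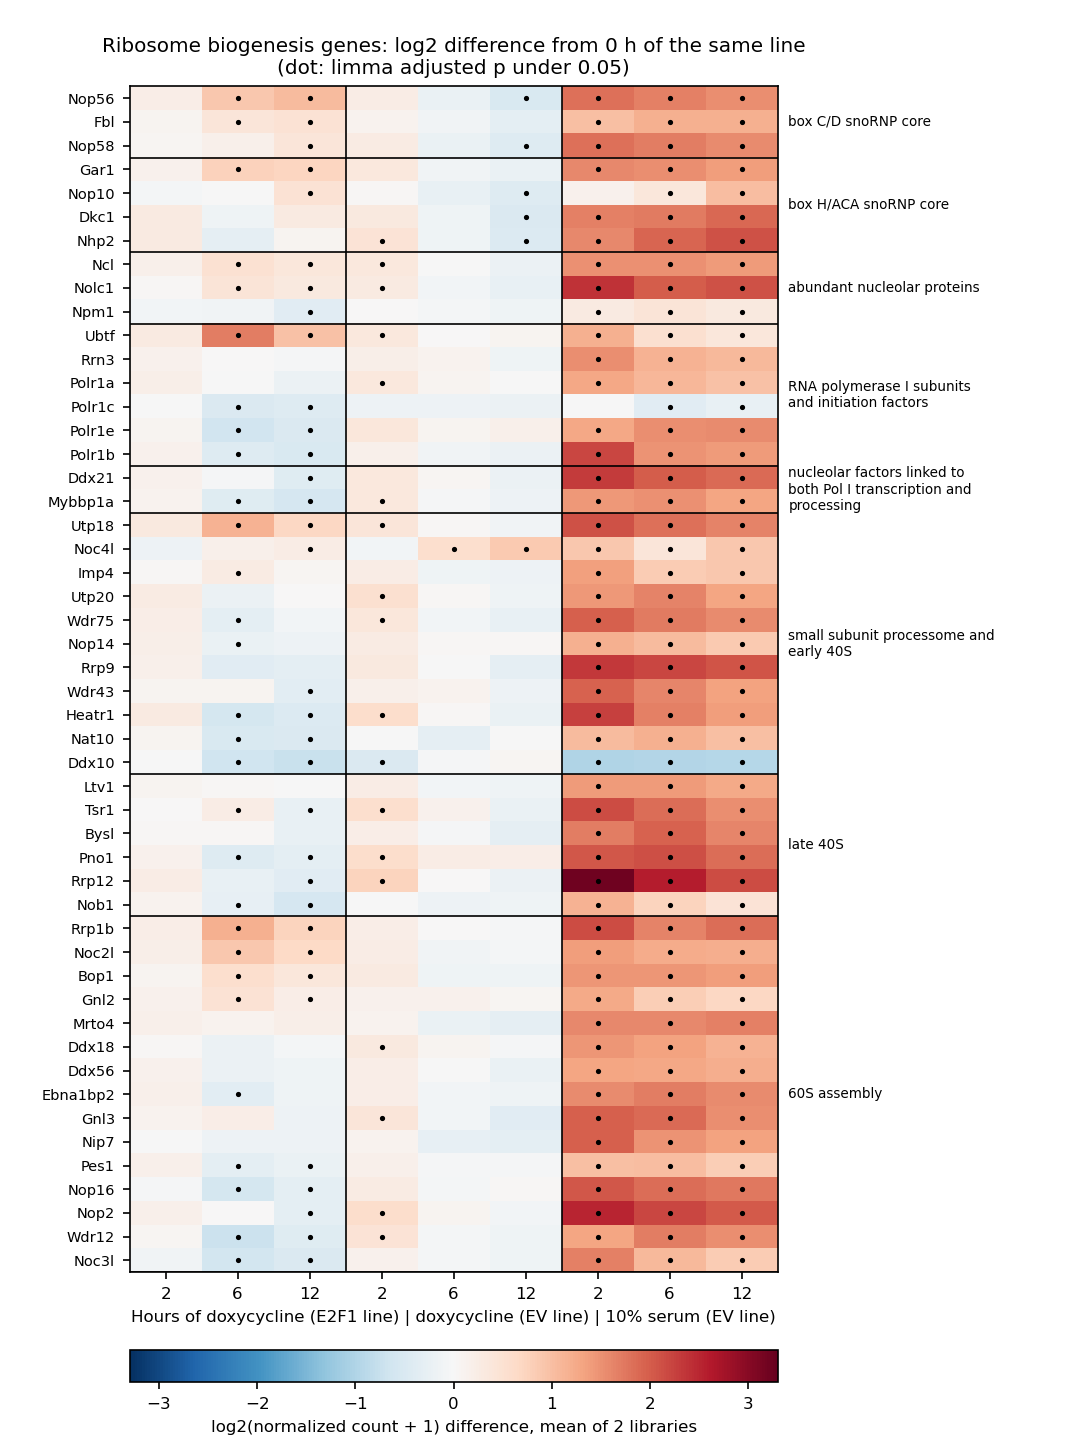
Log2 difference from 0 h of the same line for each of the 50 genes (rows, grouped by role) at 2, 6 and 12 h of doxycycline in the E2F1 line, doxycycline in the EV line and 10% serum in the EV line (columns), as the mean of 2 libraries. Dots mark a limma adjusted p under 0.05. The serum columns are red for nearly every row, and the E2F1 columns hold 14 higher and 19 lower genes at 12 h.

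E2F1 induction gave a split in place of a common rise. At 6 h, 13 members were higher and 16 lower (median -0.08, with 28.8 and 22.9% of all genes), and at 12 h, 14 were higher and 19 lower (median -0.16, with 31.8 and 29.7% of all genes). These shares lie near those of all genes. By role, 5 of the 7 snoRNP core proteins were higher and none lower at 12 h, and of the 6 late 40S factors none was higher and 4 were lower, of which 2 also fell relative to the doxycycline control. The 11 members higher at both times, which share the 0 h libraries, were Bop1, Fbl, Gar1, Gnl2, Ncl, Noc2l, Nolc1, Nop56, Rrp1b, Ubtf and Utp18. Another 13 were lower at both times: Ddx10, Heatr1, Mybbp1a, Nat10, Nob1, Noc3l, Nop16, Pes1, Pno1, Polr1b, Polr1c, Polr1e and Wdr12. Among all genes, 23.5% were higher at both times and 16.8% were lower at both. For rises the members' share lay near that of all genes, and for falls it lay above. Some of the genes lower at 12 h had started above the EV line at 0 h: Heatr1, Mybbp1a, Nop16, Pno1, Wdr12, Nop2, Rrp12 and Tsr1. Of these, all but Mybbp1a still had a mean at 12 h above the EV mean at 0 h. A higher start was not particular to the falls: Bop1, Ncl, Nolc1, Nop58 and Utp18, which were higher at 12 h, had it too. In all, 21 of the 50 members were higher in the E2F1 line at 0 h (8.86% of all genes). The part that this start plays in the falls was not tested. Of the 19 falls at 12 h, 7 were also called relative to the doxycycline control (Ddx10, Mybbp1a, Nat10, Nob1, Noc3l, Pno1 and Polr1e), and the other 12 got no call in that comparison: Ddx21, Heatr1, Nop16, Nop2, Npm1, Pes1, Polr1b, Polr1c, Rrp12, Tsr1, Wdr12 and Wdr43. Of the 16 falls at 6 h, 8 were called relative to that control, Heatr1, Nop16 and Wdr12 among them, and 8 were not. Of the rises, 12 of 13 at 6 h and 12 of 14 at 12 h were called relative to the control, where the exceptions were Tsr1 at 6 h, and Gnl2 and Noc4l at 12 h. Of all genes, 21.7% fell at 12 h in both comparisons and 8.04% with no call relative to the control. The members' shares were 14.0 and 24.0%. At 6 h the shares were 11.4 and 11.5% of all genes, and 16.0% of the members for each. Rises called in both comparisons took in 22% of all genes at 6 h and 26.1% at 12 h, against 24.0% of the members at each time. Both comparisons use the same E2F1 libraries. Tsr1 was higher at 6 h and lower at 12 h. The split leaned further down under other scalings, where quantile normalization gave 10 rises against 26 falls at 6 h and 10 against 30 at 12 h, and equal totals gave 11 against 24, then 13 against 23. These scalings moved the median of all genes by -0.11 and -0.12 at 6 h. Without E2F1 0 h replicate 1, the count lower at 12 h was 11.

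In the EV line given doxycycline, 1 member was higher and none lower at 6 h (0.134 and 0% of all genes by limma, 8 members at an unadjusted p under 0.05). At 12 h, 1 was higher and 5 lower (0.749 and 3.42% of all genes). The member that rose was Noc4l at both times, and the fall at 12 h took in Nop56, Nop58, Dkc1, Nhp2 and Nop10. These small counts rested on single libraries: the 6 h rise was not called without EV 0 h replicate 2 or without either 6 h library, and the 5 lower members became 8 without EV 0 h replicate 1, 0 without EV 0 h replicate 2 and 1 without EV 12 h replicate 1. Set against that control, the change in the E2F1 line was greater for 13 members and smaller for 9 at 6 h (22.2 and 12.3% of all genes), and greater for 15 and smaller for 8 at 12 h (27.3 and 23.3% of all genes). Quantile normalization gave 9 and 20 at 6 h and 14 and 17 at 12 h, and equal totals gave 10 and 14, then 15 and 10. The 9 smaller at 6 h became 4 without E2F1 0 h replicate 1, 5 without E2F1 6 h replicate 2 and 5 without EV doxycycline 6 h replicate 2.

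**Figure D2:**
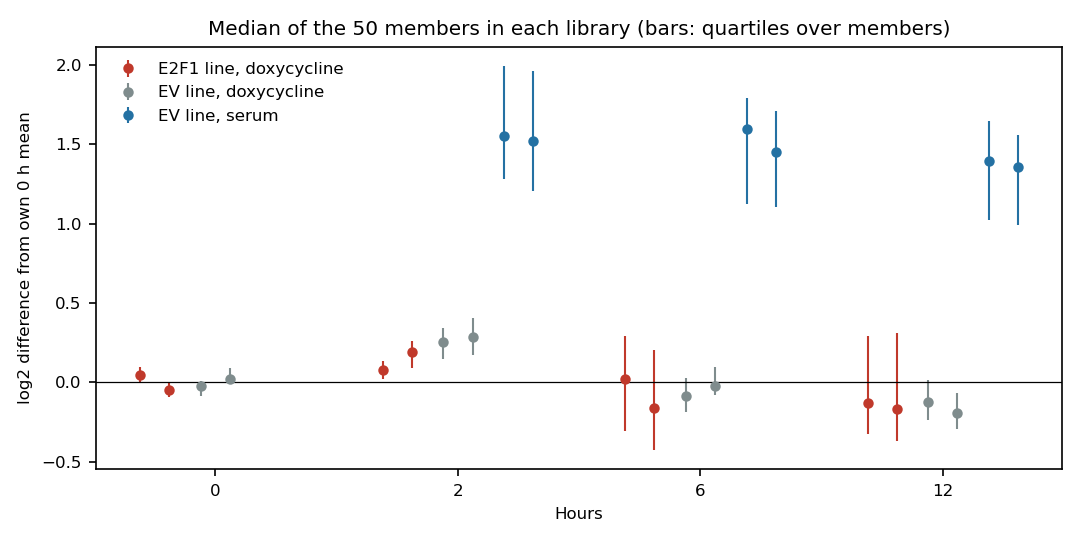
Median over the 50 genes of the log2 difference from the 0 h mean of the same line (vertical axis), for each library at 0, 2, 6 and 12 h (horizontal axis). Points are libraries and bars run from the lower to the upper quartile over genes. The 6 serum libraries lie between 1.36 and 1.60, and the doxycycline libraries of both lines lie between -0.19 and 0.29.

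The 3 box C/D proteins form the core of the small nucleolar RNPs that guide methylation of ribosomal RNA. All 3 were higher at 12 h of E2F1 (31.8% of all genes). Nop56 and Nop58 were lower at 12 h in the doxycycline control (3.42% of all genes). Nop56, a scaffold of this particle, started from 6049 and 5303 in the E2F1 line at 0 h and reached 10771 and 10396 at 6 h, then 11909 and 11580 at 12 h. In the EV line it was at 4714 and 4952 at 0 h, 3663 and 3208 after 12 h of doxycycline, 17488 and 16457 at 2 h of serum, and 14456 and 13679 at 12 h of serum. The 12 h libraries of the E2F1 line lay above both of its 0 h libraries, and those of EV doxycycline lay below theirs.
Its rise at 12 h was 1.05 (SE 0.08, limma adjusted p = 8.77e-09), the largest of the 50 members in the E2F1 line at that time. The change exceeded that of the doxycycline control by 1.55 (SE 0.12, adjusted p = 1.68e-08) and differed from that of serum by -0.49 (adjusted p = 0.0025). The fall in the control was not called without EV 0 h replicate 2. Fbl, the fibrillarin methyltransferase, went from 3752 and 3275 at 0 h to 4712 and 4973 at 12 h in the E2F1 line, and from 3163 and 3475 to 7807 and 7207 at 12 h of serum. Fbl rose by 0.47 with E2F1 (adjusted p = 0.000501) and 1.18 with serum (adjusted p = 1.18e-08). Nop58, the partner scaffold of Nop56, was not called at 6 h and rose at 12 h by 0.39 (adjusted p = 0.000517), from 4385 and 3897 to 5489 and 5331.

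Box H/ACA proteins, the core of the particles that convert uridine to pseudouridine, split by gene and by time against 0 h. At 12 h of E2F1, 2 of 4 were higher (31.8% of all genes). In the doxycycline control Dkc1, Nhp2 and Nop10 were lower at 12 h (3.42% of all genes), calls that rested on single libraries, as given above. Relative to that control all 4 were higher at 12 h (27.3% of all genes), with a median difference of 0.83 by limma. The differences were 0.92 for Gar1, 0.89 for Nop10, 0.77 for Dkc1 and 0.54 for Nhp2. Gar1 rose early, from 1125 and 1147 at 0 h to 1986 and 1838 at 6 h in the E2F1 line (log2 difference 0.75, SE 0.12, limma adjusted p = 6.38e-05), and stood at 1790 and 1941 at 12 h. Nop10, at 1182 and 1174 at 0 h, had 1224 and 1112 at 6 h and 1489 and 1785 at 12 h. Its rise of 0.47 at 12 h (adjusted p = 0.0021) came with no call at 6 h. In serum Nop10 was not called at 2 h and rose by 1.01 at 12 h (adjusted p = 6.72e-07).
Dkc1, the pseudouridine synthase, had 2549 and 2086 at 0 h, 2319 and 1859 at 6 h and 2881 and 2804 at 12 h in the E2F1 line, while the EV doxycycline libraries went from 1486 and 1781 to 1071 and 1285 at 12 h. The E2F1 change against 0 h missed the threshold (0.30, adjusted p = 0.0505), but its excess over that of the control passed (adjusted p = 0.0018). Serum took Dkc1 to 6343 and 5752 at 12 h, a rise of 1.89. The Dkc1 call against 0 h was near the threshold and passed without E2F1 0 h replicate 1 (adjusted p = 0.0196, with 0.019 to 0.402 over the alternatives). Nhp2 had 1788 and 1465 at 0 h and 1693 and 1760 at 12 h in the E2F1 line, against 1353 and 1599 rising to 6553 and 6063 with 12 h of serum (2.10, adjusted p = 1.32e-10). The E2F1 libraries of Nhp2 at 0 and 12 h overlapped, and its excess over the doxycycline control (adjusted p = 0.011) was lost without E2F1 0 h replicate 2 or EV 0 h replicate 2.

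From 6 to 12 h in the E2F1 line 4 members rose, and each is a snoRNP core gene: Nop10 (0.48), Dkc1 (0.45), Nhp2 (0.38) and Nop58 (0.23). Another 10 fell, with 15.1% of all genes higher and 20.2% lower, and the largest falls were Ubtf (-0.72), Tsr1 (-0.49) and Utp18 (-0.48). With equal totals the counts were 7 higher and 9 lower. The 4 higher became 1 without E2F1 6 h replicate 2 or 12 h replicate 1, and the 10 lower became 5 without 6 h replicate 1 or 12 h replicate 2.

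Among the abundant nucleolar proteins, Ncl and Nolc1 were higher with E2F1 and Npm1 was lower. Ncl, nucleolin, an RNA-binding protein that acts on the nascent precursor and whose promoter letters are shown above, was at 22554 and 21687 at 0 h, 31879 and 30701 at 6 h and 29178 and 27707 at 12 h in the E2F1 line. Serum took it from 15803 and 19465 to 48559 and 44719 at 12 h. The E2F1 rise was 0.50 at 6 h (SE 0.09, limma adjusted p = 0.00021) and 0.36 at 12 h (adjusted p = 0.0025), and that of serum at 12 h was 1.41.
Nolc1, which ties snoRNPs to the nucleolus, went from 3877 and 3515 to 5039 and 4877 at 6 h of E2F1, and from 2514 and 2505 to 13038 and 13281 at 2 h of serum. Its rise was 0.43 at 6 h of E2F1 (adjusted p = 0.000333) and 2.39 at 2 h of serum (adjusted p = 5.6e-14). Npm1, nucleophosmin, a nucleolar chaperone, had the highest level of the members per kilobase of exon, at 14585 normalized counts per kb in the EV line at 0 h against 1731 for Ncl, the next. The length joins all annotated exons of a gene, 2665 bp for Npm1 and 10188 bp for Ncl, and can exceed that of the transcript. Without it, the mean counts were 38868.5 for Npm1 and 17634 for Ncl. Npm1 had 33949 and 34846 at 0 h and 26414 and 26242 at 12 h of E2F1, a change of -0.39 (adjusted p = 0.0014), and its serum values at 12 h, 50454 and 47089 against 35349 and 42388, gave a rise of 0.33 (adjusted p = 0.004) that was not called without EV 0 h replicate 1.

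RNA polymerase I genes moved apart, with the upstream binding factor gene Ubtf rising and 3 of 4 subunit genes falling in the E2F1 line at 12 h. Relative to the doxycycline control, Ubtf was higher and 1 subunit gene, Polr1e, was lower at 6 h and at 12 h, and the other 4 of the 6 genes were not called. Ubtf encodes UBF, the factor that keeps active ribosomal DNA open and helps to load the polymerase. It stood at 7258 and 7573 at 0 h, 9281 and 9074 at 2 h, 24402 and 23104 at 6 h and 14091 and 14754 at 12 h in the E2F1 line. In the EV line it was at 6913 and 6643 at 0 h, at 6945 and 6782 after 6 h of doxycycline, and at 15181 and 15505, 8645 and 10911, and 8664 and 8832 after 2, 6 and 12 h of serum. The 6 h libraries of the E2F1 line lay above all 20 other libraries.
Its rise was 1.68 at 6 h (SE 0.08, limma adjusted p = 2.71e-11, 3.20-fold) and 0.96 at 12 h (adjusted p = 2.15e-08), against 1.18, 0.52 and 0.37 with 2, 6 and 12 h of serum, the last not called after quantile normalization. At 12 h it was the member whose change with E2F1 exceeded that with serum (by 0.59, adjusted p = 0.000456), and at 6 h it exceeded it by 1.16 (adjusted p = 1.78e-07).

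Polr1b, the second largest subunit, had 1081 and 1013 at 0 h, 718 and 837 at 6 h, and 730 and 740 at 12 h in the E2F1 line. In the EV line it rose from 955 and 939 to 4558 and 4203 at 2 h of serum. The fall with E2F1 was -0.51 at 12 h (SE 0.10, limma adjusted p = 0.000265) and the rise with 2 h of serum was 2.21 (adjusted p = 1.99e-12). The doxycycline control had 875 and 774 at 12 h, and the difference between the lines was -0.31 and did not pass (adjusted p = 0.0811), although it did after quantile normalization and without EV 12 h replicate 2.
Polr1e, a subunit particular to this polymerase and the lowest of the 6 genes in counts, went from 367 and 339 to 245 and 208 at 6 h and 221 and 286 at 12 h of E2F1. That fall was -0.64 at 6 h (adjusted p = 0.0023) while the 12 h value was -0.49 (adjusted p = 0.0116), and against the doxycycline control it was -0.73 and -0.65 (adjusted p = 0.0156 and 0.0203). With 12 h of serum Polr1e rose from 290 and 296 to 849 and 897, by 1.57. The 12 h fall of Polr1e was not called without E2F1 0 h replicate 1 or 12 h replicate 1, and the differences from the control were each lost without E2F1 0 h replicate 1 and other single libraries. Polr1c, a subunit shared with RNA polymerase III, fell with both treatments, by -0.42 at 12 h of E2F1 (2455 and 2199 to 1593 and 1890, adjusted p = 0.0012) and, with serum for 12 h, by -0.24 (2592 and 2294 to 2204 and 1933, adjusted p = 0.0397), the latter lost without EV 0 h replicate 1 or serum 12 h replicate 2. The doxycycline control of Polr1c had 2143 and 2116 at 12 h, and the E2F1 change differed from that of the control by -0.23, which was not called (adjusted p = 0.1887) except after quantile normalization.
Polr1a, the largest subunit, had 3569 and 3788 at 0 h and 3443 and 3056 at 12 h of E2F1, and the difference of -0.18 was not called (adjusted p = 0.0886, 95% interval -0.37 to 0.01), but passed under quantile normalization, with equal totals and without E2F1 12 h replicate 1. Rrn3, the initiation factor TIF-IA that links the polymerase to growth signals, had 2466 and 2436 at 0 h and 2335 and 2430 at 12 h of E2F1, a difference of -0.04 with a 95% interval of -0.23 to 0.15, called only after quantile normalization. Serum raised both at 2 h, Polr1a from 2676 and 2693 to 6702 and 6385 (1.28) and Rrn3 from 1865 and 1939 to 5655 and 5440 (1.54, adjusted p = 3.24e-11).

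**Figure D3:**
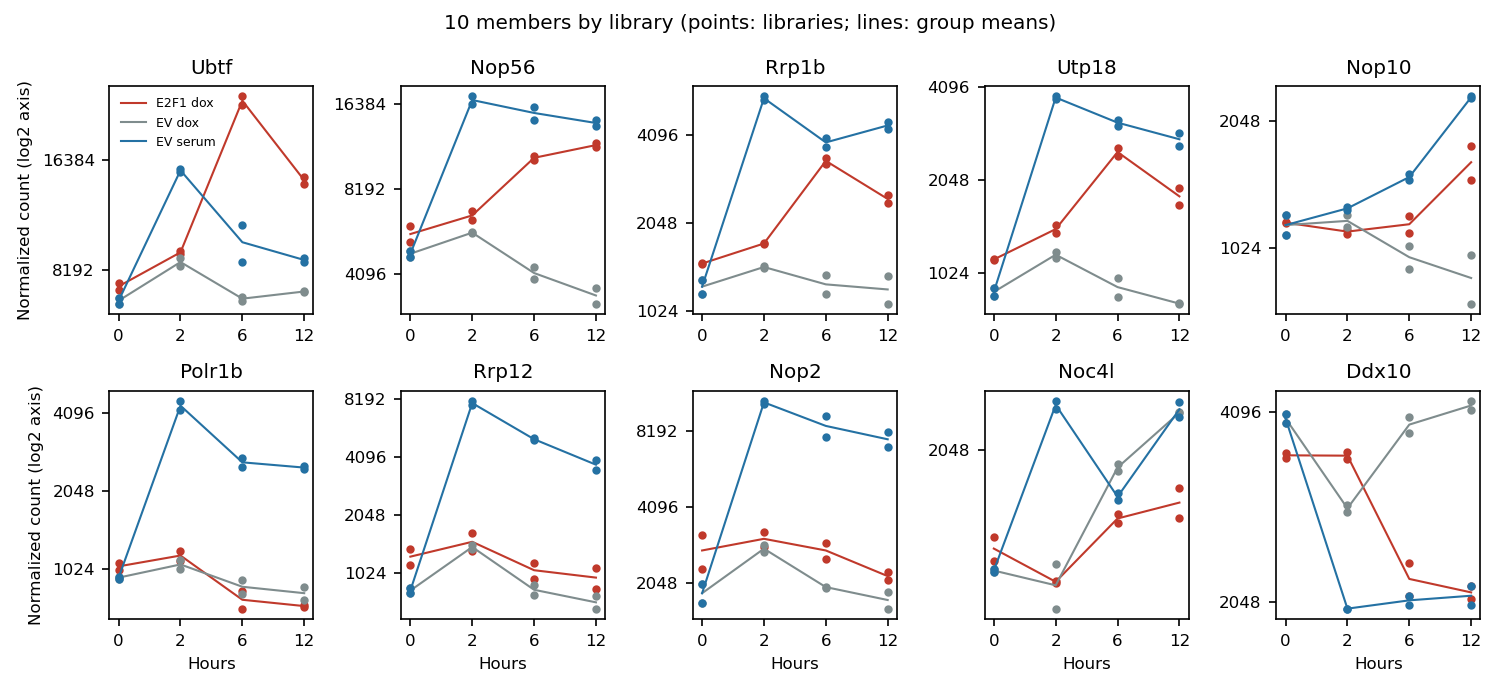
Normalized counts (log2 vertical axes) of 10 members at 0, 2, 6 and 12 h, with points for libraries and lines through group means, for doxycycline in the E2F1 line, doxycycline in the EV line and serum in the EV line. Ubtf peaks at 6 h in the E2F1 line at 24402 and 23104, Rrp12 peaks at 2 h of serum at 7964 and 7613, and Ddx10 falls with both treatments.

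Ddx21 and Mybbp1a, nucleolar proteins linked to both polymerase I transcription and processing, were lower at 12 h of E2F1. Ddx21, a helicase, had 6470 and 5589 at 0 h and 4806 and 4270 at 12 h, a fall of -0.41 (limma adjusted p = 0.0034) that was not called without E2F1 0 h replicate 1. Relative to the doxycycline control the Ddx21 difference was -0.23 and was not called (adjusted p = 0.2353) except after quantile normalization. With serum it went from 4969 and 4915 to 24949 and 24217 at 2 h, a rise of 2.31. Mybbp1a, Myb-binding protein 1A, fell from 10120 and 9578 to 6632 and 6837, by -0.55 (adjusted p = 1.19e-05), and by -0.38 against the doxycycline control (adjusted p = 0.0093).

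In the small subunit processome and early 40S group, 10 of 11 genes rose at every serum time, against 36 to 37.5% of all genes. With 12 h of E2F1, 2 rose, 4 fell and 5 were not called, where 31.8% of all genes rose and 29.7% fell. Relative to the doxycycline control 1 was higher and 3 were lower, with 27.3 and 23.3% of all genes. Utp18, a processome WD-repeat protein, rose in the E2F1 line from 1137 and 1132 at 0 h to 2604 and 2448 at 6 h and 1929 and 1702 at 12 h. The differences were 1.15 (SE 0.09, limma adjusted p = 6.97e-09) and 0.68 (adjusted p = 3.94e-06), and 1.10 and 0.80 against the doxycycline control. Heatr1, a large scaffold of the processome, went the other way, from 1848 and 1586 to 1287 and 1036 at 6 h and 1301 and 1190 at 12 h.
The Heatr1 fall was -0.57 at 6 h (adjusted p = 0.000635) while the 12 h value was -0.46 (adjusted p = 0.0026), against a rise of 2.25 at 2 h of serum, from 1245 and 1198 to 5877 and 5752. Nat10, the acetyltransferase of ribosomal RNA cytidines, had 1475 and 1480 at 0 h and 1063 and 1062 at 12 h of E2F1, a fall of -0.48 (adjusted p = 0.000222), and 2713 and 2734 at 12 h of serum, a rise of 0.98. Rrp9, which binds the U3 snoRNA, had 720 and 601 at 0 h and 521 and 526 at 12 h of E2F1 and was not called (-0.33, adjusted p = 0.0733), but was under both other scalings and without E2F1 0 h replicate 2. With serum Rrp9 went from 545 and 739 to 3068 and 2786 at 6 h (2.20).

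Ddx10 and Noc4l of the same group took courses of their own. Ddx10, a helicase gene, was the member lower at all 3 serum times, at 4073 and 3931 at 0 h and 1998 and 1999, 2095 and 2025, and 2022 and 2168 after 2, 6 and 12 h. In the E2F1 line it fell from 3534 and 3462 to 2094 and 2361 at 6 h and 2173 and 2068 at 12 h, while EV doxycycline libraries at 12 h held 4130 and 4262. The falls were -0.96 at 6 h of serum (SE 0.07, limma adjusted p = 2.39e-09) and -0.72 at 12 h of E2F1 (adjusted p = 1.44e-07), with no overlap of the libraries compared.
Noc4l, a partner of Nop14, rose in the EV line given doxycycline, from 1307 and 1294 to 1896 and 1942 at 6 h and 2364 and 2357 at 12 h (0.56 and 0.86, adjusted p = 0.0055 and 4.49e-05). In the E2F1 line it had 1477 and 1349 at 0 h and 1584 and 1778 at 12 h, a rise of 0.25 (adjusted p = 0.0203) not called under either other scaling or without E2F1 0 h replicate 2 or 12 h replicate 2. It differed from that of the control by -0.61 (adjusted p = 0.000527), and the 6 h rise in the control was lost without EV 0 h replicate 2 or either 6 h library.

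Late 40S factors, which act on the precursor after the processome, all rose with serum (36 to 37.5% of all genes). None of the 6 was higher at 12 h of E2F1 (31.8% of all genes). Rrp12, an export factor, had the largest serum change of all members, from 856 and 813 at 0 h to 7964 and 7613 at 2 h, 5019 and 5108 at 6 h and 3950 and 3525 at 12 h. The log2 differences were 3.22 (SE 0.14, limma adjusted p = 7.35e-13), 2.60 and 2.16, or 9.32-fold at 2 h. In the E2F1 line Rrp12 had 1367 and 1132 at 0 h and 1098 and 849 at 12 h, a fall of -0.37 (adjusted p = 0.0268) not called without E2F1 0 h replicate 1 or 12 h replicate 2.
Nob1, the nuclease that makes the final cut of 18S rRNA, fell in the E2F1 line from 1812 and 1758 to 1247 and 1182 at 12 h, by -0.56 (adjusted p = 6.6e-06), and rose with 12 h of serum from 1750 and 1822 to 2513 and 2413, by 0.46. Pno1, its partner, went from 1009 and 933 to 783 and 774 at 12 h of E2F1 (-0.32, adjusted p = 0.0066, not called without E2F1 0 h replicate 1) and from 628 and 616 to 2749 and 2694 at 6 h of serum (2.13). Bysl, bystin, had 1486 and 1191 at 0 h and 1197 and 1034 at 12 h of E2F1 and was not called (-0.26, adjusted p = 0.0644), and the libraries overlapped. It was called under both other scalings and without E2F1 0 h replicate 2 or 12 h replicate 1. Serum raised Bysl to 4142 and 3944 at 6 h from 1057 and 1050 (1.94). The exons of Bysl overlap those of Ccnd3 over 361 bp and those of Tsr1 overlap Srr over 1240 bp, and the use of strand in counting is not given in the sources used here.

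The 15 genes of 60S assembly all rose at every serum time, against 36 to 37.5% of all genes. With 12 h of E2F1, 4 rose, 5 fell and 6 were not called, where 31.8% of all genes rose and 29.7% fell. Relative to the doxycycline control 4 were higher and 1 was lower, with 27.3 and 23.3% of all genes. The rise was led by Rrp1b, a nucleolar protein of the 60S pathway, which went from 1493 and 1473 at 0 h to 3419 and 3245 at 6 h and 2548 and 2388 at 12 h. That was a difference of 1.17 at 6 h (SE 0.10, limma adjusted p = 1.78e-08) and 0.73 at 12 h (adjusted p = 3.95e-06).
Noc2l, another nucleolar complex gene, rose from 1724 and 1791 to 3384 and 3103 at 6 h, by 0.88 (adjusted p = 4.44e-07), and its exons overlap Samd11 over 598 bp. The 3 genes of the PeBoW complex, which is needed to process the precursor of 28S rRNA, went different ways in the E2F1 line. Bop1 rose from 2730 and 2490 to 3313 and 3397 at 12 h (0.36, adjusted p = 0.0048), Pes1 fell from 2586 and 2737 to 2413 and 2196 (-0.21, adjusted p = 0.035), and Wdr12 fell from 1080 and 1008 to 893 and 696 (-0.40, adjusted p = 0.009).
At 6 h these were 0.55, -0.32 and -0.71. At 12 h the call for Bop1 was lost without E2F1 0 h replicate 2, that for Pes1 without 0 h replicate 2 or 12 h replicate 2, and that for Wdr12 without 0 h replicate 1 or 12 h replicate 2. All 3 rose with 12 h of serum, by 1.38, 0.81 and 1.53. Nop2, a methyltransferase of 28S rRNA with an E-box before its start, went from 2035 and 1710 at 0 h to 10543 and 10773 at 2 h of serum (2.51, SE 0.13, adjusted p = 1.29e-11). In the E2F1 line Nop2 had 3195 and 2334 at 0 h and 2263 and 2114 at 12 h, a fall of -0.32 (adjusted p = 0.047) lost without E2F1 0 h replicate 1 or either 12 h library. Noc3l fell from 1726 and 1807 to 1351 and 1198 at 12 h (-0.47, adjusted p = 0.000103), and Mrto4, which has 2 named pseudogenes that could share its reads, was not called (0.19, adjusted p = 0.1662).

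Set directly against serum, the change with E2F1 was smaller for nearly all members. It was smaller for 47 members and greater for 1 at 2 h (30.2 and 26.6% of all genes), smaller for 46 and greater for 2 at 6 h (27.6 and 30.3% of all genes), and smaller for 47 and greater for 1 at 12 h (23.8 and 25% of all genes). The member greater at 2 h was Ddx10, those at 6 h were Ubtf and Ddx10, and that at 12 h was Ubtf. The call for Ddx10 at 6 h (0.30) was lost without E2F1 6 h replicate 2 or EV 0 h replicate 1, which left 1. The 2 arms come from different lines and share no library.
At 12 h, 14 members were higher with both treatments, 17 were lower with E2F1 and higher with serum, 2 (Ddx10 and Polr1c) were lower with both, and the other 17 were higher with serum and not called with E2F1. Over all genes, 19% were higher with both, 5.69% lower with E2F1 and higher with serum, and 15.3% lower with both. Since 48 of 50 members were higher with serum, the members' split follows their calls in the E2F1 line. Across the 50 genes the E2F1 and serum differences had a Pearson r of 0.037 and Spearman rho of -0.005 at 6 h, and 0.165 and 0.113 at 12 h, a description over genes that share the same libraries. In levels, the median ratio of the E2F1 line to serum was 0.423 at 6 h and 0.482 at 12 h, and only Ddx10 and Ubtf had the higher mean in the E2F1 line at either time.

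**Figure D4:**
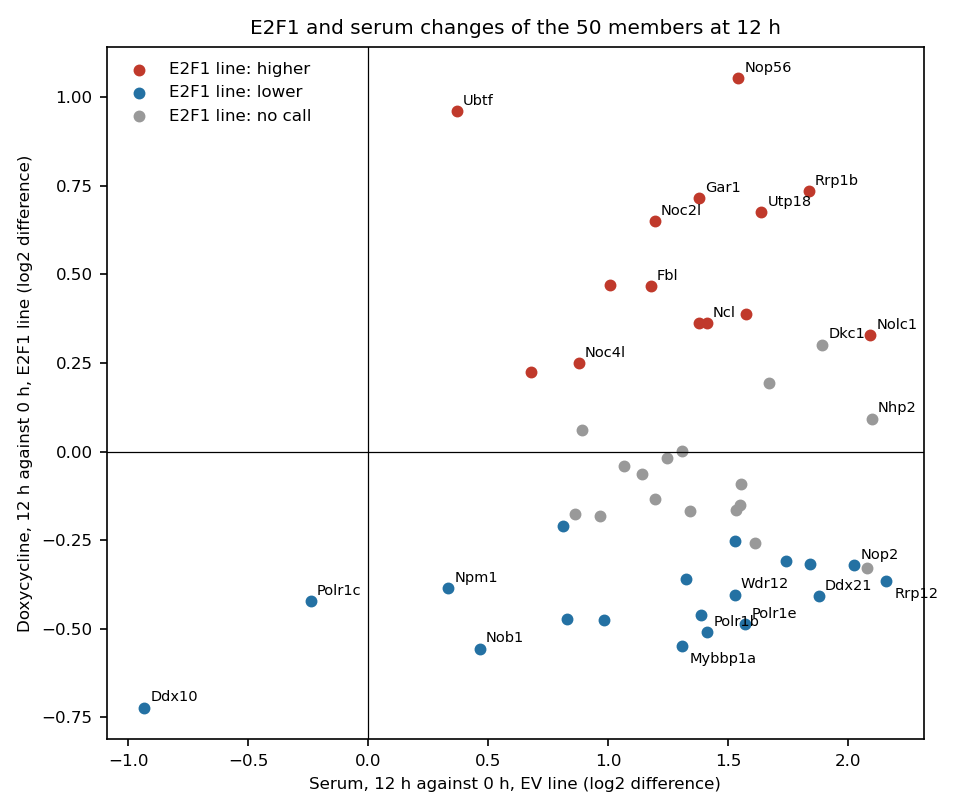
Log2 difference at 12 h against 0 h for each of the 50 genes, with 10% serum in the EV line on the horizontal axis and doxycycline in the E2F1 line on the vertical axis, coloured by the limma call in the E2F1 line. Of the 14 higher, 19 lower and 17 uncalled genes of the E2F1 line, all but Ddx10 and Polr1c lie right of 0, and Ubtf and Nop56 stand at the top.

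In both courses 2 h was the commonest time of the highest group mean, and no difference between the courses was tested. In serum 31 members had their highest group mean at 2 h, 12 at 6 h, 5 at 12 h (Dkc1, Mrto4, Nhp2, Nop10 and Polr1e) and 2 at 0 h (Ddx10 and Polr1c). From 2 to 12 h of serum, 24 members fell and 2 rose, Nop10 (0.87) and Nhp2 (0.52), with 31.7% of all genes in each direction. The largest falls were Rrp12 (-1.06), Heatr1 (-0.87) and Noc3l (-0.84). This balance depended on scaling: the median of all genes shifted by 0.29 with equal totals, where 12 members rose and 10 fell, and quantile normalization gave 8 and 13. In the E2F1 line, 6 members peaked at 0 h, 25 at 2 h, 13 at 6 h and 6 at 12 h (Fbl, Mrto4, Noc4l, Nop10, Nop56 and Nop58). The 25 of the E2F1 line and the 31 of serum both rest on 2 h libraries that stood apart. None of the 25 was called at 2 h against 0 h. The share of all genes with the highest mean at 2 h was not counted.

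At 2 h of doxycycline the E2F1 line had no member called in either direction (0.865 and 0.99% of all genes by limma, with 12 members at an unadjusted p under 0.05), and no member differed in its change from the EV control (0.0535 and 0.0892% of all genes, 7 members at an unadjusted p under 0.05). The EV line at 2 h had 17 members higher and 1 lower (4.93 and 2.43% of all genes), led by Rrp12 (856 and 813 to 1441 and 1362, a difference of 0.75), Pno1 (0.59) and Nop2 (0.59), with Ddx10 lower (-0.47). The 17 became 8 without EV 0 h replicate 1, 10 without EV 2 h replicate 1 and 3 without EV 2 h replicate 2.
Before any treatment the lines differed, with 21 members higher in that carrying E2F1 and none lower (8.86 and 6.17% of all genes by limma, 30 members at an unadjusted p under 0.05 in either direction). Wdr12 (1080 and 1008 against 562 and 658, a difference of 0.78), Pno1 (0.64) and Wdr75 (0.61) led. The 21 became 6 without E2F1 0 h replicate 1 and 10 without EV 0 h replicate 1. This comparison and that of the EV line at 2 h share the EV 0 h libraries.

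The other genes of the pathway, a list of 134, were also mostly raised by serum. Serum raised 111 of them at 2 h, 120 at 6 h and 114 at 12 h and lowered 4, 4 and 3 (median 0.83 at 12 h). Of all genes, serum raised 37.5, 36.5 and 36% and lowered 33.5, 31 and 29.7%. With E2F1, 36 rose and 35 fell at 6 h (28.8 and 22.9% of all genes). At 12 h, 36 rose and 28 fell (median 0.02, with 31.8 and 29.7% of all genes). Relative to the doxycycline control, 34 were higher and 13 lower at 12 h (27.3 and 23.3% of all genes). Against 0 h, the rises at 12 h were led by Exosc8 (1.99, SE 0.11), a ring subunit of the RNA exosome, Nop9 (1.55) and Ddx27 (1.38). Falls were led by Mdn1 (-1.01, SE 0.10), the AAA ATPase of 60S maturation, Ddx54 (-0.81) and Nol6 (-0.73). Of the 24 genes of snoRNP assembly and the exosome, 13 rose and 1 fell at 12 h of E2F1 (31.8 and 29.7% of all genes).
Genes for the cytosolic ribosomal proteins themselves took another course: of 81, 67 fell and none rose at 12 h of E2F1 (median -0.38, limma, with 29.7% of all genes lower), and 54 fell and 4 rose at 12 h of serum (median -0.38, also with 29.7% lower), while 4 rose and 2 fell at 2 h of serum. Relative to the doxycycline control at 12 h, 15 of the 81 were lower with E2F1, none was higher and 66 were not called (median -0.27, with 23.3% of all genes lower). Myc had 2399 and 2434 at 0 h, 1348 and 1700 at 2 h, 2791 and 2166 at 6 h and 1365 and 1116 at 12 h in the E2F1 line. It fell by -0.67 at 2 h (adjusted p = 0.0275, lost without any 1 of the 4 libraries) and by -0.97 at 12 h (adjusted p = 2.43e-05). At 6 h the Myc difference was 0.025 and not called (adjusted p = 0.9014), and its sign changed under other settings. Any link between Myc and the changes of the members was not tested. With serum Myc went from 1723 and 1865 to 4343 and 4251 at 2 h and 3798 and 3834 at 12 h, a rise of 1.26 and 1.09. At 12 h its E2F1 change was also below that of the doxycycline control (-0.62, adjusted p = 0.0225), a call lost without E2F1 0 h replicate 2, E2F1 12 h replicate 2, EV 0 h replicate 1 or EV 12 h replicate 1.

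By motif, the 14 members higher at 12 h of E2F1 included 11 with a promoter window, of which 1 held CACGTG (Utp18) and 3 held an E2F-type octamer (Ncl, Nolc1 and Nop58). Of the 19 lower members 17 had a window, of which 6 held CACGTG (Mybbp1a, Nop2, Pes1, Pno1, Tsr1 and Wdr43) and 1 held an octamer (Tsr1). The 17 members with no call all had a window, of which 4 held CACGTG (Imp4, Ltv1, Rrn3 and Utp20) and none an octamer. These counts are a description, and nothing was tested on them.

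The authors' deposited tables of changed genes hold no gene with a log2 fold change smaller than 2 in either direction. Of the genes in the authors' deposited tables for serum, 12 of 1268 at 2 h, 6 of 795 at 6 h and 5 of 726 at 12 h are members. No member is in the authors' deposited tables for doxycycline, which hold 510 genes at 12 h of E2F1. The largest member difference with doxycycline found here, 1.68 for Ubtf at 6 h of E2F1, lies under the limit of those tables. Rrp12 has log2 fold changes of 3.23, 2.61 and 2.19 in the authors' deposited tables for 2, 6 and 12 h of serum.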

How the data were processed

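Per the submitters' processing notes, reads were handled with FastQC, Trimmomatic, HISAT2, featureCounts and DESeq2 on mouse build mm10, with versions not given in the sources used here. The authors deposited a table of normalized counts rounded to whole numbers, treated here as a normalized score and not as raw counts, so no count model was used and the read depth is unknown. The authors also deposited tables of changed genes with log2 fold changes and adjusted p-values.

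From the normalized counts, log2(value + 1) was fitted with limma 3.58.1 in R 4.3.3, with 1 mean per group over all 22 libraries, 11 residual degrees of freedom and a trended prior. P-values were adjusted by Benjamini-Hochberg over 11208 genes with a threshold of 0.05. A filter of 10 in at least 2 libraries removed no gene. The fit was tested on simulated data. Gene positions and overlaps came from GENCODE M21, where 10977 of the 11208 identifiers had the same version, and promoters from RefSeq on GRCm38.p6.

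All 50 members could be named. Those described with every library were a fixed set of 17 genes and, in each comparison, the 3 largest rises and 3 largest falls past the threshold with no overlap of libraries, to which others were added after their values were seen. The members, the other gene lists and the tests were chosen with earlier results of these data known. Alternatives were another pseudocount (8), no filter, a mean of at least 500, quantile normalization, equal totals, a replicate block, a fit on only the groups compared, each library left out, and, chosen after seeing the data, a fit leaving aside all 2 h libraries.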

Additional observations from a re-analysis of the deposited data

Results flagged for a closer look

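The change with E2F1 differed from that of the EV line given doxycycline for 22 members at 6 h and 23 at 12 h. Of all genes, 22.2% had a greater and 12.3% a smaller change than that control at 6 h, and 27.3 and 23.3% at 12 h. The E2F1 change differed from that with serum for 48 members at each of 2, 6 and 12 h (48, 48 and 48), each by limma's test of the difference. Against serum, 26.6% of all genes had a greater and 30.2% a smaller change at 2 h. These shares were 30.3 and 27.6% at 6 h, and 25 and 23.8% at 12 h. At 12 h, 17 members fell with E2F1, rose with serum and differed between the 2 treatments. Over all genes 5.69% were lower with E2F1 and higher with serum, and since 48 of the 50 members rose with serum, the 17 follow from the 19 falls with E2F1. The E2F1 change minus the serum change on the log2 scale was -2.5251 for Rrp12, -2.3454 for Nop2, -2.2854 for Ddx21, -2.1581 for Pno1, -2.0582 for Polr1e and -2.0498 for Nop16. It was -1.9312 for Wdr12, -1.9222 for Polr1b, -1.8542 for Mybbp1a, -1.8451 for Heatr1, -1.7784 for Tsr1 and -1.6863 for Wdr43. It was -1.4593 for Nat10, -1.302 for Noc3l, -1.0203 for Pes1, -1.019 for Nob1 and -0.7181 for Npm1. The 2 treatments were given to different lines, so line and treatment cannot be told apart here.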

How the results depend on the processing

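Of 276 counts of members under other settings, 249 stayed within 1.5 times the reported count and 27 moved, and of 192 counts with a library left out, 169 stayed and 23 moved. The cause was not tested for any that moved. With quantile normalization the counts were 1 higher at 2 h of E2F1, 26 lower at 6 h and 30 lower at 12 h, 2 lower at 2 h of serum, 1, 20 and 17 with a smaller change than the doxycycline control at 2, 6 and 12 h, and 8 higher and 13 lower from 2 to 12 h of serum. With equal totals they were 1 higher at 2 h of E2F1, 3 lower at 12 h of EV doxycycline, 2 lower at 2 h of serum, 14 with a smaller change than the control at 6 h, 2 with a greater change than serum at 2 h, 7 higher from 6 to 12 h of E2F1, and 12 higher and 10 lower from 2 to 12 h of serum. Fitting only the groups compared gave 1 higher at 2 h of E2F1, 6, 0 and 0 for EV doxycycline (higher at 2 h, higher at 6 h, lower at 12 h), 1 lower at 12 h of serum, 1 with a greater change than serum at 6 h, and 9 higher in the E2F1 line at 0 h. Leaving aside all 2 h libraries gave 2 lower at 12 h of EV doxycycline and 1 lower at 12 h of serum.

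With 1 library left out, ranges that moved were 11 to 21 lower at 12 h of E2F1, 3 to 12, 0 to 1 and 0 to 8 for EV doxycycline (higher at 2 h, higher at 6 h, lower at 12 h), 1 to 2 lower at 12 h of serum, 4 to 10 with a smaller change than the control at 6 h, 1 to 2 with a greater change than serum at 6 h, 1 to 5 higher and 5 to 10 lower from 6 to 12 h of E2F1, and 6 to 15 higher in the E2F1 line at 0 h. A lone library was assumed to vary like the other groups. The Myc difference at 6 h of E2F1, not called, changed sign to -0.1699 with quantile normalization, -0.0918 with equal totals and -0.1578 without E2F1 6 h replicate 1 (-0.1578 to 0.2078 with 1 library left out).

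Replicate numbers did not pair the libraries in a way shared by all groups: over 55 pairs of groups the correlation of deviations ran from -0.277 to 0.455 with a median of 0.031. It was over 0.1 in 18 pairs and under -0.1 in 6. These values do not show whether some groups were paired. With the replicate number as a block, 14 members were higher and 19 lower at 12 h of E2F1, and 1 had a smaller change than the control at 2 h.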
